A study of Mus musculus with 8 samples.

Results

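The 35 transcripts described here encode proteins of the chemical synapse of neurons, and they were read in cells sorted as astrocytes. They were taken by gene symbol, from presynaptic release, postsynaptic, receptor and transmitter genes, and all 35 were found among 24047 rows of a gene count table. The 8 libraries came from tdTomato-positive cells of mouse somatosensory cortex, 4 from Glast-CreERT2; Ai14 mice (WT) and 4 from Glast-CreERT2; Ptch1fl/fl; Ai14 mice (Ptch1cKO). All of these mice received tamoxifen (10 to 15 μL at 20 mg/ml) on postnatal days 12 to 14 and were sampled on days 23 to 25. Both groups thus carry the tamoxifen-inducible Cre under the Glast promoter and the Ai14 reporter, and differ by the floxed Ptch1 alleles. The sort used the reporter alone, and Glast is active in astrocytes and in other glial and progenitor cells. Separate animals for each library are not stated in the labels. A p-value here sets a group difference against the variation among these libraries, and may not extend to other animals.

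A chemical synapse releases transmitter when the SNARE proteins Snap25, Stx1a and Vamp2 pull a vesicle onto the presynaptic membrane, with Syt1 as the calcium sensor. Scaffolds such as Rims1, Bsn and Pclo hold vesicles at the active zone, and on the other side Dlg4, the Shank proteins and Homer1 hold glutamate receptors in place. Many of these genes are textbook markers of neurons, although astrocytes also express some members of the same families. In bulk RNA of this kind, fewer cells of a type and less RNA per cell cannot be told apart.

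Promoter sequences are shown for Rims1, the most abundant member per length, for Syn1, the one member whose window held both longer motifs searched, and for Syn2, the one member whose groups did not overlap. Each is the 250 bases before a RefSeq transcript start on GRCm38.p6, and 27 of the 35 members had an entry, with 41 starts in all. The windows searched were these 250 bases, on both strands. Capitals mark TCAGCACC, the longer block of the element bound by the neuronal gene repressor REST, and TGACGTCA, the cyclic AMP response element. No other motif is marked.
Rims1, chr1:22806159-22806408, minus strand: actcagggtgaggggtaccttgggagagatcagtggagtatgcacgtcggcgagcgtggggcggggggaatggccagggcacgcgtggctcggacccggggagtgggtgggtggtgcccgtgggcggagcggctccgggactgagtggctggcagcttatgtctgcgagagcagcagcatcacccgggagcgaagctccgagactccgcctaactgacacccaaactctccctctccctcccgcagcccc
Syn1, chrX:20920919-20921168, minus strand: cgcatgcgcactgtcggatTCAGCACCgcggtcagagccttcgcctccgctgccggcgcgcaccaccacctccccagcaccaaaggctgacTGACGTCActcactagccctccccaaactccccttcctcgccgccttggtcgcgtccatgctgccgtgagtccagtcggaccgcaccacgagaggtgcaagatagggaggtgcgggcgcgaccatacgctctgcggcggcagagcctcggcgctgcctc
Syn2, chr6:115134652-115134901, plus strand: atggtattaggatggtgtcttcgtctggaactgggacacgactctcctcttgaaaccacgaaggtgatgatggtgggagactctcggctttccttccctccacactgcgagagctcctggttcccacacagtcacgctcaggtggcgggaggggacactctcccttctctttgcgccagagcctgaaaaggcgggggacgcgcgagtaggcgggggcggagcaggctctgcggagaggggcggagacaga

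TCAGCACC was in 1.32% of all 32851 windows and TGACGTCA in 1.55%, and each was in 1 of the 41 windows of the members (2.44%). The shorter REST block GGACAG, searched alone, was in 18.7% of all windows and in 8 of the 41 (19.5%), those of Gabrb2, Gad2, Grin1, Slc17a7, Slc32a1, Sv2b, Syt1 and Unc13a. A match of letters is a description of the window only. Median GC content was 58% in the members' windows and 52.4% in all.

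Libraries held between 4061274 and 7206462 counts. Ptch1 had 356 ± 122 CPM (counts per 1000000 of a scaled library) in WT and 223 ± 40.7 in Ptch1cKO (SD, n = 4 each), with overlapping groups. The count covers the whole gene and does not check the loss of single exons. The most abundant astrocyte markers were high. Aldoc had a mean of 8916 in the authors' deposited TPM (transcripts per 1000000, which also scale for transcript length), Glul 3999.8 and Slc1a2 3794. Others were much lower, such as Gja1 at 167, Aldh1l1 at 113, Sox9 at 70.9, Aqp4 at 52.2 and Fgfr3 at 43.0 TPM. Of 16 astrocyte markers, 13 had positive fold changes, and their summed level was 25361 to 37816 CPM in WT and 20514 to 41358 CPM in Ptch1cKO. Transcripts of other cells were present too. The 14 oligodendrocyte lineage markers summed to 13804 to 26703 CPM in WT and 17527 to 23222 CPM in Ptch1cKO, with 12 of 13 tested positive. Among them Mbp had a mean of 5570.5 TPM, above Glul and Slc1a2. The 12 microglial markers summed to 438 to 855 CPM in WT and 504 to 1320 CPM in Ptch1cKO, with 12 of 12 positive. The 10 endothelial and mural markers summed to at most 38.0 CPM, and Cldn5 had 0 to 3 counts. By edgeR and by DESeq2, 0 of these markers passed over all genes. The edgeR unadjusted p was under 0.05 for 2 of 16 astrocyte, 5 of 13 oligodendrocyte and 3 of 12 microglial markers, higher in Ptch1cKO, where 4.80% of all genes were. It was under 0.05 for 1 of 4 endothelial or mural markers, lower, where 4.54% of all genes were. Xist, the X-inactivation transcript of female cells, had 1148 counts in WT replicate 2 and 612 in WT replicate 3. The other 6 libraries, all mutant ones included, had under 10. High Xist was thus seen in WT only, so this difference is in part confounded with genotype. The main fit held no term for it. The part of these cell types in the members' values was not tested.

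Neuronal synapse transcripts were abundant in the sorted cells. The RNA was amplified and captured with exome probes, and how far these steps shape levels between genes, here and below, was not tested. Together the members took 3.06 ± 0.0733% of all counts in WT and 2.94 ± 0.303% in Ptch1cKO (SD, n = 4). Per length, the active zone scaffold Rims1 led with 4815 ± 450 TPM (SD over 8 libraries), rank 21 of 23585 genes. Next came the kinase subunit Camk2a, which marks excitatory forebrain neurons, with 4614 ± 357 TPM (rank 23), and the SNARE protein Snap25 with 4239 ± 698 TPM (rank 25). All 3 stood above the astrocyte enzyme Glul and transporter Slc1a2 in mean TPM. Rims1 is outside the rule for named genes and is described because of this level, after its values were seen.

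Levels within the group were very unequal. Mean TPM ran from 1.40 for Slc17a6 to 4815 for Rims1, with a median of 80.0, against a median of 14.6 over the genes tested. Camk2a, Rims1 and Snap25 held between 64.3 and 70.4% of the members' counts in each library. Of the 35, 14 had over 100 TPM and 3 had under 10 TPM, which were Slc17a6, Grin2a and Gabrb2. Partners in one machinery did not share a level in TPM, where the part of probe capture was likewise not tested. Snap25 was 39.9 to 73.5 times as high as Syt1 in TPM across the libraries, and Rims1 was 89.1 to 164 times as high as Bsn. Camk2a exceeded its partner subunit Camk2b 10.7 to 15.6 times and exceeded Nrgn, another transcript of excitatory forebrain neurons, 17.3 to 25.7 times.

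**Figure D1:**
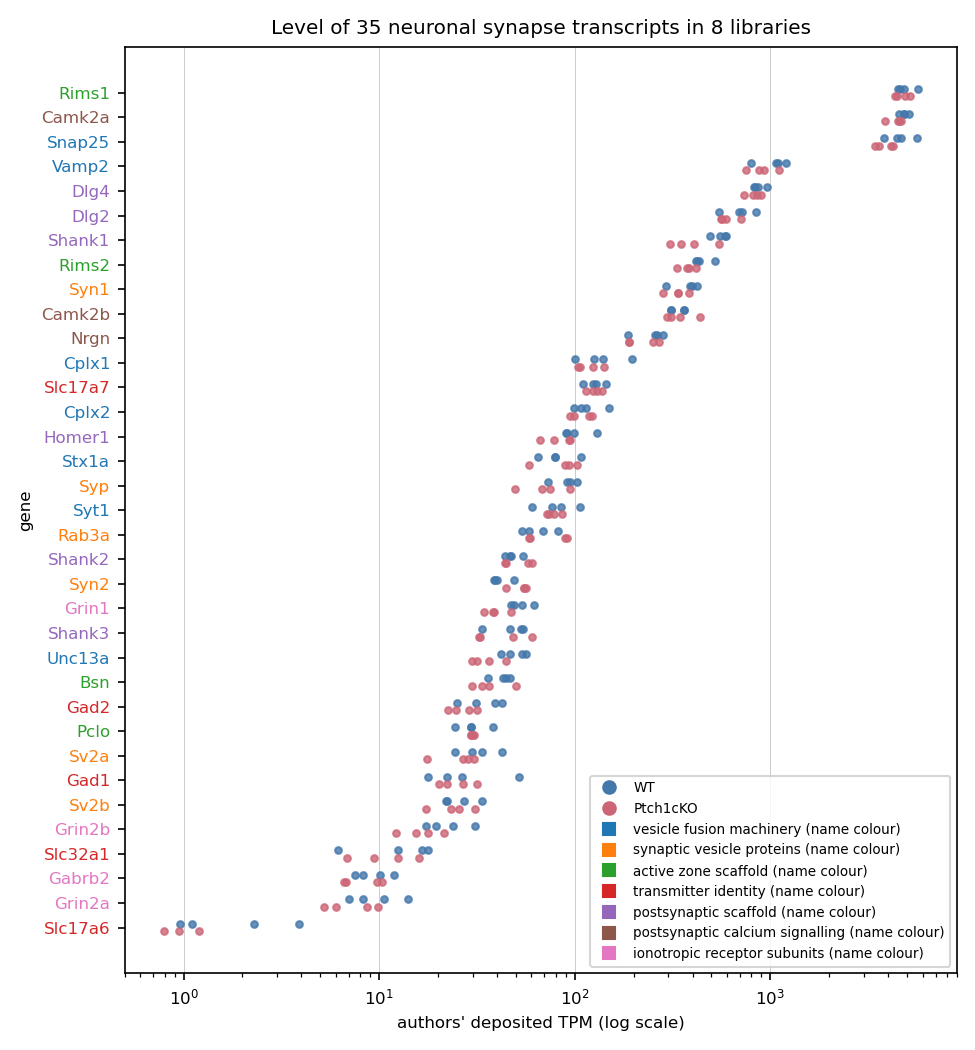
Deposited TPM (log axis) of each member in each library, WT in blue and Ptch1cKO in red, with genes ordered by mean and names coloured by role. Rims1, Camk2a and Snap25 stand apart at the top at 4239 to 4815 TPM on average and Slc17a6 at the bottom at 1.40, and its library at 0 (Ptch1cKO replicate 2) is not drawn.

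Between Ptch1cKO and WT, no member passed the test over all genes, and most estimates were close to 0. All 35 members had enough counts to be tested, and 0 passed (edgeR's quasi-likelihood fit, adjusted p under 0.05 by Benjamini-Hochberg over all genes), where 0.100% of the 10954 genes tested passed. DESeq2 also passed 0 members, against 0.721% of all genes, with 2 of 35 at an unadjusted p under 0.05, against 9.77%. Fold changes were positive for 13 members and negative for 22, with a median of -0.06 on the log2 scale, beside 49.7% positive and a median of -0.0018 over all genes. Without adjustment, p was under 0.05 for Syn2 among higher members, 1 of 35 against 4.80% of all genes, and for Unc13a and Shank1 among lower ones, 2 of 35 against 4.54%. The groups did not overlap for Syn2, 1 of 35 members, against 5.02% of all genes. These shares are near or under the background. For 34 members the interval of 2 standard errors around the log2 fold change lay within a 2-fold change either way, and for 22 within 1.5-fold. The exception at 2-fold was Slc17a6, the member with the fewest counts.

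**Figure D2:**
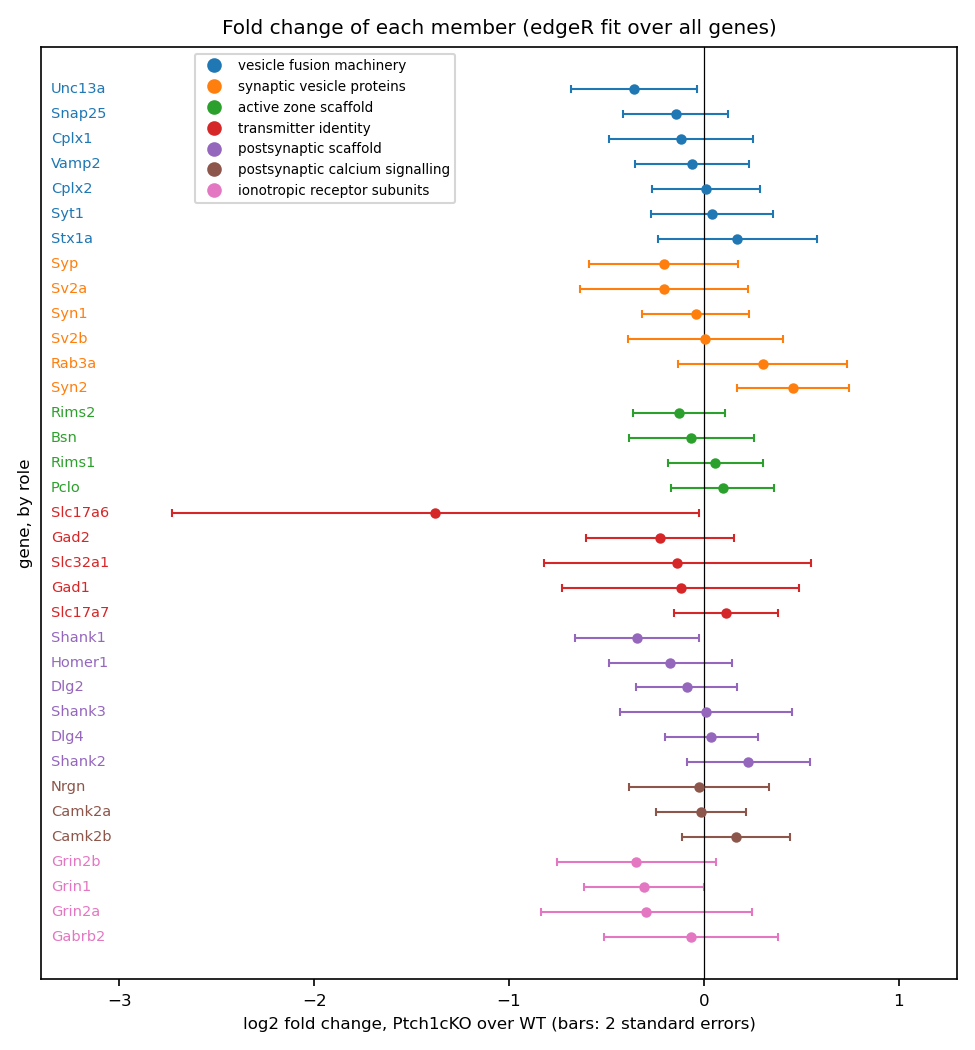
Log2 fold change of each member (Ptch1cKO over WT, edgeR) with bars of 2 standard errors, grouped and coloured by role. Syn2 lies highest at 0.46, all but Slc17a6 at -1.38 lie between -0.36 and 0.46, and no member passed over all genes.

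Among the genes of vesicle fusion, Snap25 (chromosome 2, 136713453 to 136782428, plus strand) had 3788, 3000.3, 3569 and 4324 CPM in WT replicates 1 to 4. In Ptch1cKO replicates 1 to 4 it had 3028, 3548, 3811 and 2903 CPM. The highest library was a WT one and the lowest a mutant one, and the groups overlapped over most of their range (log2 fold change -0.14, SE 0.14). Syt1, the calcium sensor of fast release (chromosome 10, 108497650 to 109010982, minus strand), had 136, 148, 106 and 180 CPM in WT. It had 134, 145, 149 and 160 CPM in Ptch1cKO, all inside the WT range, with a log2 fold change of 0.04 (SE 0.16). Unc13a primes vesicles for fusion (chromosome 8, 71624417 to 71671757, minus strand). Its values were 138, 163, 157 and 118 CPM in WT and 137, 91.6, 122 and 97.5 CPM in Ptch1cKO. Mutant replicates 2 and 4 lay below every WT library and the other two inside the WT range. The log2 fold change was -0.36 (SE 0.16; edgeR, unadjusted p = 0.041, Benjamini-Hochberg adjusted p = 0.512). Without any one of WT replicates 1 to 3 or mutant replicates 2 and 4, the edgeR unadjusted p for Unc13a was 0.0522 to 0.126. Without WT replicate 4, mutant replicate 1 or mutant replicate 3 this edgeR p was 0.0174, 0.0145 and 0.0409. In the 6 libraries with under 10 Xist counts its log2 fold change was -0.19 (SE 0.20; edgeR, unadjusted p = 0.356, Benjamini-Hochberg adjusted p = 0.858). An exon of Unc13a overlaps the opposite-strand gene Colgalt1, which was not analysed here. Stx1a, Vamp2, Cplx1 and Cplx2, the last 2 encoding proteins that bind the SNARE complex, had log2 fold changes from -0.12 to 0.17.

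Of the vesicle proteins, Syn2, a synapsin that tethers vesicles to the cytoskeleton (chromosome 6, 115134902 to 115282006, plus strand), had 84.7, 79.9, 80.0 and 96.2 CPM in WT. In Ptch1cKO it had 96.6, 122, 130 and 119 CPM. Every mutant library lay above every WT library, though WT replicate 4 and mutant replicate 1 were within 1 CPM of each other. The fold was 1.37 (log2 fold change 0.46, SE 0.14), and it did not pass over all genes (edgeR, unadjusted p = 0.00613, Benjamini-Hochberg adjusted p = 0.341). Of the 35 members, 12 share exonic sequence with a gene on the opposite strand. Timp4, a metalloprotease inhibitor on the opposite strand, overlaps Syn2 in this way. Timp4 averaged 78.9 ± 21.2 CPM over the WT and 123 ± 27.2 CPM over the mutant libraries (SD, n = 4), with 0.64 (SE 0.21) as its log2 fold change. Whether counting used strand is not stated in the labels, so Syn2 and Timp4 reads cannot be told apart where the genes overlap. In the 6 libraries with under 10 Xist counts the log2 fold change of Syn2 was 0.37 (SE 0.19; edgeR, unadjusted p = 0.0701, Benjamini-Hochberg adjusted p = 0.653).

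The other synapsin, Syn1, averaged 431 ± 59.5 CPM over the WT and 419 ± 55.8 CPM over the mutant libraries (SD, n = 4), with -0.04 (SE 0.14) as its log2 fold change. In TPM, Syn1 exceeded Syn2 by 9.07 ± 1.69 times in WT and 6.49 ± 1.54 times in Ptch1cKO (SD, n = 4). An exon of Syn1 overlaps opposite-strand Araf. Rab3a, the small GTPase of synaptic vesicles (chromosome 8, 70754679 to 70758677, plus strand), had 35.9, 26.9, 29.8 and 40.0 CPM in WT and 31.3, 48.7, 52.2 and 31.6 CPM in Ptch1cKO. Mutant replicates 2 and 3 were above every WT library and the other mutants inside the WT range (log2 fold change 0.30, SE 0.22). It was 0.11 in the 6 libraries with under 10 Xist counts and 0.17 without mutant replicate 3. Exons of Rab3a and of the opposite-strand gene Mpv17l2 overlap, and Mpv17l2 had a log2 fold change of 0.64 (SE 0.32). The vesicle membrane proteins Syp, Sv2a and Sv2b had log2 fold changes of -0.21, -0.20 and 0.01, each lowest in mutant replicate 2. Without that library Syp was at -0.05 and Sv2a at -0.05.

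Rims1, Rims2 and Pclo, of the 4 active zone scaffolds, varied little between libraries. Rims1, which links vesicles to calcium channels (chromosome 1, 22286251 to 22805994, minus strand), had 6819, 6758, 7127 and 8098 CPM in WT. In Ptch1cKO it had 6941, 7582, 8764 and 6740.0 CPM, so that the highest and the lowest of the 8 were both mutant libraries. Its coefficient of variation over the 8 libraries was 10.1%, against a median of 18.4% over the members and 25.3% over all genes tested. Rims2, its close relative (chromosome 15, 39198261 to 39684372, plus strand), had 1289, 1217, 1205 and 1455 CPM in WT and 1178, 1274, 1256 and 1023 CPM in Ptch1cKO. Its log2 fold change was -0.13 (SE 0.12), with mutant replicates 1 and 4 below every WT library. Pclo (chromosome 5, 14514918 to 14863459, plus strand) had 204, 238, 240 and 298 CPM in WT and 253, 253, 282 and 261 CPM in Ptch1cKO. The mutant values all lay inside the WT range. Bsn, the other large scaffold, had a log2 fold change of -0.06 (SE 0.16).

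Transmitter identity genes showed that transcripts of excitatory and of inhibitory cells were both present. Slc17a7, the vesicular glutamate transporter of cortical neurons (chromosome 7, 45163949 to 45176142, plus strand), had 134, 116, 136 and 147 CPM in WT. Its mutant values were 153, 138, 158 and 128 CPM, with a log2 fold change of 0.11 (SE 0.13) and overlapping groups. Slc17a6, the glutamate transporter of thalamic and other subcortical neurons (chromosome 7, 51622006 to 51671119, plus strand), had 22, 11, 44 and 7 counts in WT and 14, 0, 7 and 8 counts in Ptch1cKO. The count of 0 in mutant replicate 2 allows up to 0.52 CPM, counting error only. WT replicates 1 and 3 were highest and the other WT libraries lay among the mutants (log2 fold change -1.38, SE 0.68; edgeR, unadjusted p = 0.0601, Benjamini-Hochberg adjusted p = 0.562). Without WT replicate 3 the log2 fold change was -0.86 (SE 0.72).

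The GABA vesicle transporter Slc32a1 (chromosome 2, 158610767 to 158615748, plus strand) had 18.3, 16.6, 12.5 and 5.95 CPM in WT and 17.0, 7.27, 14.5 and 10.0 CPM in Ptch1cKO. Its lowest library was WT replicate 4, and the mutant values all fell inside the WT range. Gad1, a GABA-synthesising enzyme (chromosome 2, 70553072 to 70602014, plus strand), had 61.5, 20.5, 30.8 and 24.8 CPM in WT and 25.1, 32.7, 42.4 and 27.2 CPM in Ptch1cKO. WT replicate 1 stood above all others and the groups overlapped. Gad2, the second such enzyme (chromosome 2, 22622205 to 22693874, plus strand), had 65.2, 79.6, 51.4 and 83.3 CPM in WT and 48.9, 53.3, 75.0 and 62.4 CPM in Ptch1cKO. The libraries highest for Gad1 and for Gad2 differed, WT replicate 1 for the first and WT replicate 4 for the second. Per length, Slc17a7 exceeded the sum of Gad1 and Gad2 by 2.04 ± 0.427 times in WT and 2.47 ± 0.506 times in Ptch1cKO (SD, n = 4).

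Of the postsynaptic scaffolds, Shank1 (chromosome 7, 44310253 to 44360572, plus strand) had 1398, 1625, 1634 and 1483 CPM in WT. In Ptch1cKO it had 1614, 899.8, 1306 and 1021 CPM, so that 3 mutant libraries lay below every WT library and mutant replicate 1 was among the highest WT values. The log2 fold change was -0.34 (SE 0.16; edgeR, unadjusted p = 0.0475, Benjamini-Hochberg adjusted p = 0.53). Without mutant replicate 1 it was -0.51 (SE 0.14; edgeR, Benjamini-Hochberg adjusted p = 0.315), and without mutant replicate 2 it was -0.22 (SE 0.15; adjusted p = 0.731). Shank2 (chromosome 7, 144001928 to 144424494, plus strand) had 115, 120, 140 and 115 CPM in WT and 157, 118, 180 and 121 CPM in Ptch1cKO. Its mutant replicates 1 and 3 were above every WT library, with a log2 fold change of 0.23 (SE 0.16), and of 0.11 without mutant replicate 3. Shank3 averaged 121 ± 27.1 CPM over the WT and 123 ± 39.1 CPM over the mutant libraries (SD, n = 4). The 3 Shank genes, scaffolds of the same family, thus had fold changes of different sign, and no test compared them. The PSD-95 gene Dlg4 (1041 ± 84.3 and 1069 ± 119 CPM), its relative Dlg2 (2035 ± 298 and 1915 ± 202 CPM) and Homer1 (220 ± 38.4 and 195 ± 36.0 CPM) had groups that overlapped (WT first, SD, n = 4).

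In postsynaptic calcium signalling, Camk2a (chromosome 18, 60925618 to 60988152, plus strand) had 9590.0, 8829, 9986 and 9028 CPM in WT. In Ptch1cKO it had 9646, 9319.6, 10157 and 7973 CPM. Its log2 fold change was -0.01 (SE 0.12), and its coefficient of variation of 7.55% was the lowest of the 35 members. Camk2b (chromosome 11, 5969644 to 6066362, minus strand) had 479, 539, 547 and 449 CPM in WT and 696, 470, 600 and 495 CPM in Ptch1cKO. Its mutant replicates 1 and 3 lay above every WT library (log2 fold change 0.17, SE 0.14). Nrgn, which binds calmodulin in dendrites (chromosome 9, 37544492 to 37552904, minus strand), had 122, 115, 127 and 81.0 CPM in WT and 128, 89.5, 130 and 89.4 CPM in Ptch1cKO. WT replicate 4 and mutant replicates 2 and 4 were low and the other 5 libraries were close together (log2 fold change -0.03, SE 0.18).

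All 4 receptor subunits had negative fold changes, and 0 of 4 passed. Grin1, the obligatory NMDA receptor subunit (chromosome 2, 25291181 to 25319187, minus strand), had 79.5, 96.9, 85.7 and 72.0 CPM in WT. Mutant replicates 2 to 4, at 64.4, 63.0 and 63.6 CPM, were below every WT library, and mutant replicate 1 at 78.9 CPM was not. The log2 fold change was -0.31 (SE 0.15; edgeR, unadjusted p = 0.0628, Benjamini-Hochberg adjusted p = 0.568). It was -0.17 (SE 0.19) without WT replicates 2 and 3. Grin1os, on the opposite strand with overlapping exons, averaged 19.7 ± 3.24 CPM over the WT and 16.9 ± 4.90 CPM over the mutant libraries (SD, n = 4). Grin2b, an NMDA receptor subunit high in early development (chromosome 6, 135713233 to 136173511, minus strand), had 48.8, 65.2, 84.8 and 51.5 CPM in WT and 62.0, 44.3, 38.7 and 51.6 CPM in Ptch1cKO. WT replicate 3 was highest, and mutant replicates 2 and 3 were below every WT library (log2 fold change -0.35, SE 0.20). Without WT replicate 3 the log2 fold change of Grin2b was -0.17 (SE 0.20). Without both WT libraries that had Xist counts over 10 it was -0.02 (SE 0.23; edgeR, unadjusted p = 0.915, Benjamini-Hochberg adjusted p = 0.99). Grin2a, the subunit that gains with maturation, averaged 16.2 ± 4.61 CPM over the WT and 13.1 ± 3.55 CPM over the mutant libraries, and the GABA-A subunit Gabrb2 had 26.0 ± 5.73 and 24.8 ± 5.16 CPM (SD, n = 4).

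**Figure D3:**
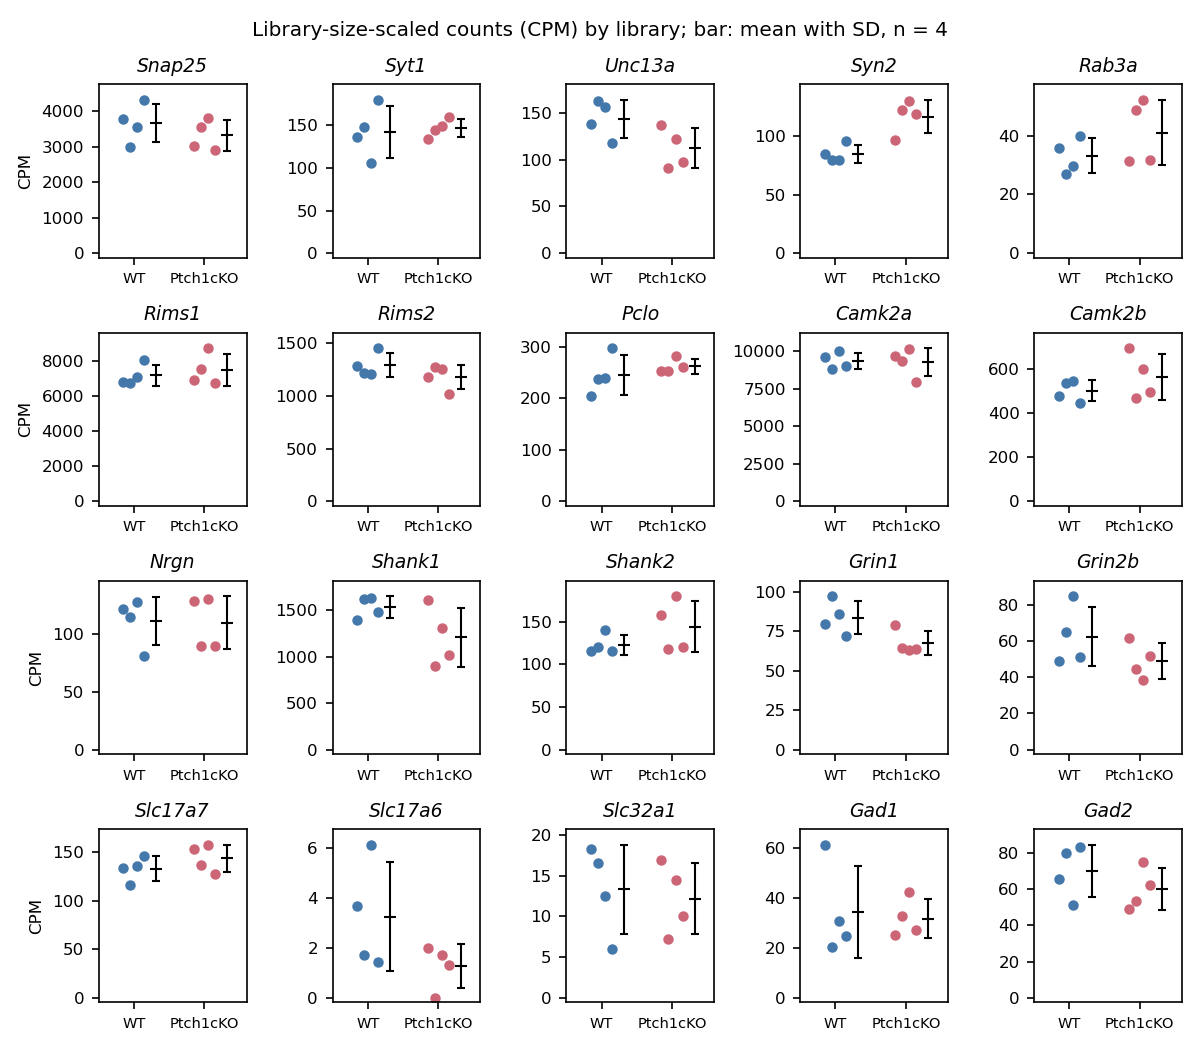
Library-size-scaled counts (CPM) of 20 members in each library, WT in blue and Ptch1cKO in red, with the group mean and SD (n = 4) as a bar beside the points. Syn2 is the one member with no overlap between groups. Shank1, Unc13a, Grin1, Rims2, Grin2b and Slc17a6 each have 2 or 3 mutant libraries below every WT library. Rab3a, Shank2, Camk2b, Slc17a7 and Nrgn each have 2 mutant libraries above every WT library.

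Other neuronal genes were read from 4 lists beside the members. Of these lists, 3 had 0 genes passing by DESeq2 over all genes, with 4 of 24 postsynaptic genes, 5 of 19 receptor subunits and 6 of 29 soma and axon markers at an unadjusted p under 0.05, against 9.77% of all genes by the same tool. For the edgeR counts that follow, the shares of all genes were 4.80% higher and 4.54% lower. Of 39 tested presynaptic genes outside the group, edgeR passed 0, with an unadjusted p under 0.05 for 1 higher and 2 lower ones. Fold changes were positive for 19 of them, with a log2 median of -0.0049. The smallest p belonged to the synuclein Sncb, at 8.70 ± 3.19 CPM over the WT and 18.9 ± 4.44 CPM over the mutant libraries (SD, n = 4) without overlap (edgeR, log2 fold change 1.12, SE 0.29, Benjamini-Hochberg adjusted p = 0.235). By DESeq2 Sncb passed, as 1 of 39, with an adjusted p of 0.028 over all genes, where 0.721% of all genes passed. The DESeq2 unadjusted p was under 0.05 for 3 of the 39, against 9.77% of all genes. The calcium channel Cacna1a and the phosphatase Synj1 gave -0.41 (SE 0.16) and -0.34 (SE 0.16) on the same log2 scale.

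Of 24 tested postsynaptic genes outside the group, edgeR passed 0, 1 higher and 3 lower ones had an unadjusted p under 0.05, 7 were positive, and the median log2 fold change was -0.10. The Camk2 inhibitor Camk2n1 was the most abundant at 2034 ± 464 TPM (SD over 8 libraries). Groups did not overlap in 5 of the 24 (20.8%), 1 higher and 4 lower, against 5.02% of all genes tested. One was Camk2g, a subunit made in many cell types, at 446 ± 82.7 CPM over the WT and 623 ± 50.5 CPM over the mutant libraries. Among the others were the scaffolds Lrrc7 (404 ± 54.9 and 303 ± 40.3 CPM) and Cnksr2 (1107 ± 121 and 887 ± 68.7 CPM, WT first, SD, n = 4). The remaining ones, Homer2 and Camk2n2, are outside the naming rule and were picked after their values were seen. The edgeR adjusted p was at least 0.32 for each of the 24.

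Receptor subunits outside the group gave 0 of 19 passing by edgeR, 2 higher and 1 lower at an unadjusted p under 0.05, and 6 of 19 positive. Gabra2 was their most abundant at 201 ± 130 TPM, before the kainate subunit Grik5 at 157 ± 21.5 TPM (SD over 8 libraries). Gabrg1, a GABA-A receptor subunit, had a log2 fold change of 0.70 (SE 0.29) with overlapping groups. The edgeR adjusted p was at least 0.417 across the list.

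Among 29 tested markers of neuronal cell bodies and axons, edgeR passed 0, 2 higher and 4 lower ones had an unadjusted p under 0.05, and 10 were positive, with a median log2 fold change of -0.07. The RNA-binding protein gene Celf4 had 412 ± 121 TPM (SD over 8 libraries). Groups did not overlap for 2 of the 29 (6.90%), Scn1a and Scn8a, both lower, against 5.02% of all genes. The sodium channels Scn1a, Scn2a1 and Scn8a gave -0.45 (SE 0.15), -0.38 (SE 0.14) and -0.39 (SE 0.14) as log2 fold changes. The nuclear neuronal marker Rbfox3 had one of 0.36 (SE 0.15), at 129 ± 19.4 CPM over the WT and 166 ± 23.4 CPM over the mutant libraries (SD, n = 4). The named markers thus had values on both sides of 0. The edgeR adjusted p was at least 0.373 for each.

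**Figure D4:**
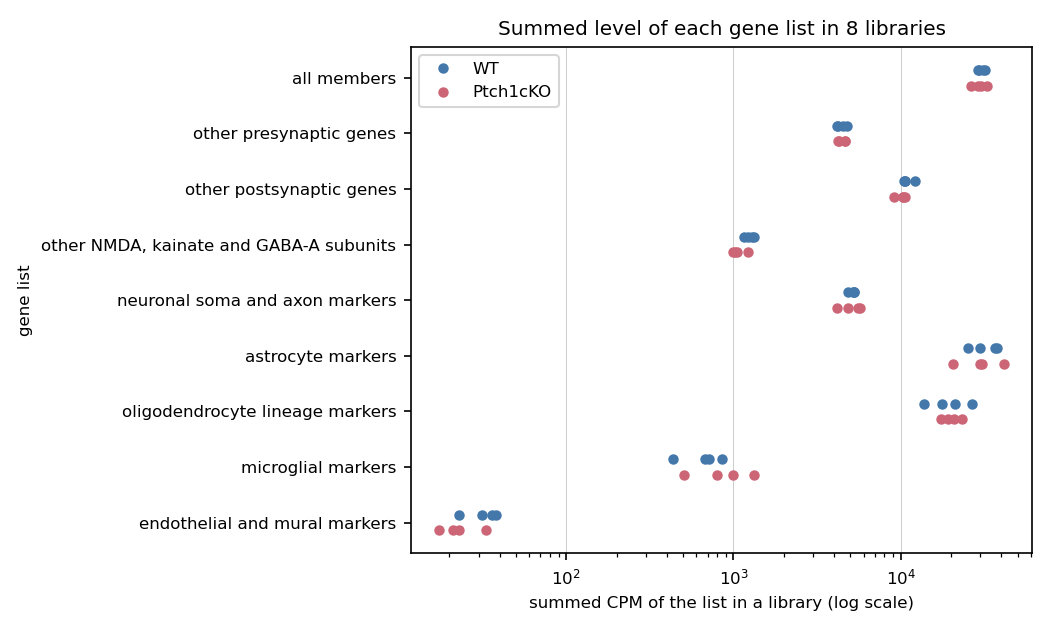
Summed CPM (log axis) of each gene list in each library, WT in blue and Ptch1cKO in red. The members sum to 26251 to 32919 CPM in the 8 libraries, the neuronal soma and axon markers to 4181 to 5696 CPM and the endothelial and mural markers to at most 38.0 CPM.

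Libraries differed in which members they held most of. The members summed to 29371, 28908, 31090.0 and 31961 CPM in WT replicates 1 to 4 and to 30428, 29039, 32919 and 26251 CPM in Ptch1cKO replicates 1 to 4. Mutant replicate 4 was lowest and mutant replicate 3 highest, with the WT libraries between them. Mutant replicate 3 also had the lowest summed astrocyte markers of the 8, at 20514 CPM, and the highest microglial sum, at 1320 CPM. Mutant replicate 4, at 30485 CPM of astrocyte markers, was neither highest nor lowest there. The part of other cells in these sums was not tested.

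Of the 8 libraries, mutant replicate 2 was the lowest for 10 of the 35 members and highest for 0. These 10 were Stx1a, Vamp2, Unc13a, Syp, Syn1, Sv2a, Sv2b, Bsn, Slc17a6 and Shank1. In the same library Snap25, Rims1, Rims2, Syn2 and Rab3a were not among the low values, at 3548, 7582, 1274, 122 and 48.7 CPM. Mutant replicate 4 was the lowest for 6 members, which were Snap25, Rims1, Rims2, Dlg4, Homer1 and Camk2a, and highest for 0. WT replicate 4 was highest for 9, among them Snap25, Syt1, Cplx1, Cplx2, Rims2 and Pclo, and lowest for Slc32a1, Shank3, Camk2b and Nrgn. Counted against the median of the 8 libraries, 12 members were above it in mutant replicate 2 and 8 in mutant replicate 4, against 24 in each of mutant replicates 1 and 3. In the WT libraries 14 to 22 members were above it. The median deviation of the members was -0.14 (log2) in mutant replicate 2 and -0.14 in mutant replicate 4.

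**Figure D5:**
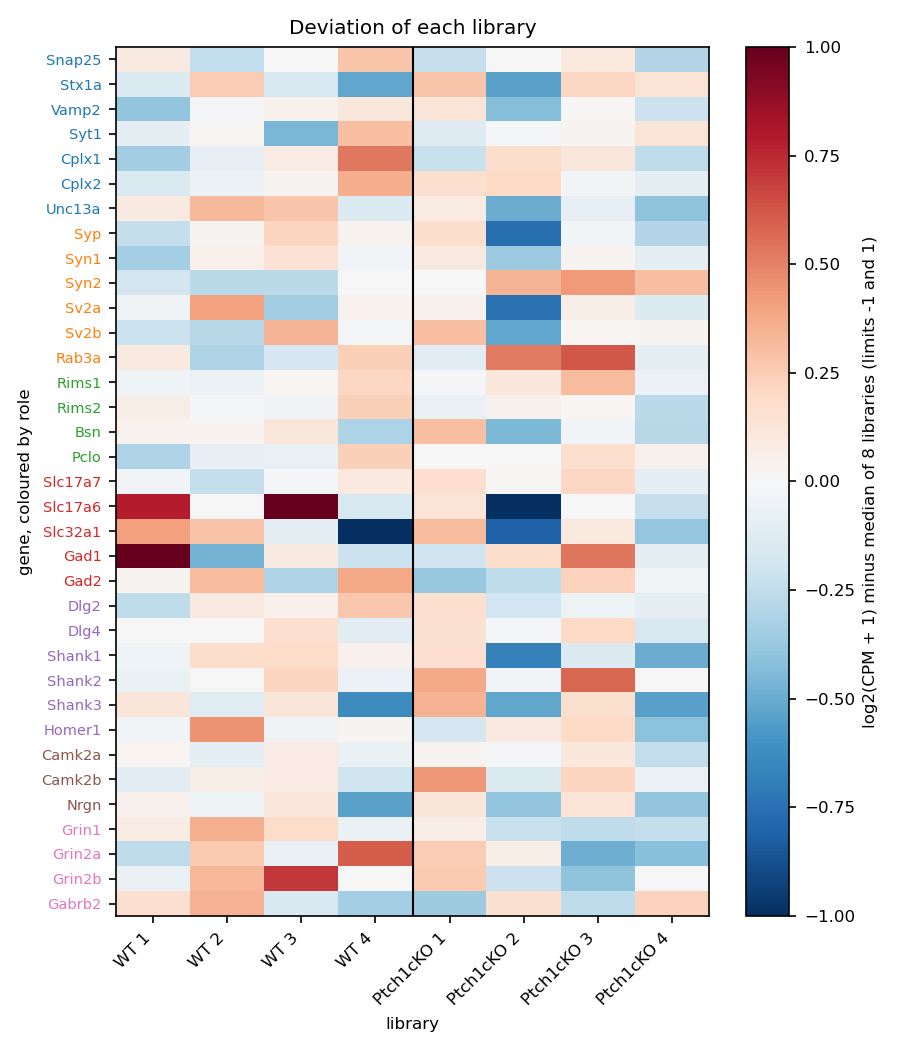
Deviation of each library from the median of the 8 (log2 of CPM + 1) for each member, red above and blue below, with colours saturating at 1 either way and a line between WT and Ptch1cKO. Mutant replicate 2 is lowest of the 8 for 10 members, Syp and Sv2a among them, and no clear band of one colour covers a whole genotype. Syn2 comes nearest, with WT replicate 4 and mutant replicate 1 close to its median.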

How the data were processed

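RNA from sorted cells was amplified and captured with exome probes, per the labels' protocols. bcl2fastq, STAR 2.5 and build mm10 are named in the submitters' processing notes. The counting program, the annotation and the use of strand are not stated in these sources. The authors deposited whole-number counts per gene symbol (24047 rows) and TPM (23585 rows), which scale for transcript length. TPM were used only to compare levels between genes.

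Counts were fitted in R 4.3.3 with edgeR 4.0.16 (filterByExpr, minimum count 10, TMM scaling, robust quasi-likelihood F test, group as the only term, all 8 libraries). The filter left 10954 genes, and p-values were Benjamini-Hochberg adjusted over all of them. CPM use TMM-scaled library sizes, and an SE is the log2 fold change divided by the square root of F. DESeq2 1.42.0, other scalings, no filter, a block, 6 libraries with under 10 Xist counts and leaving out each library were the alternatives. Positions of genes are those of GENCODE M21 (GRCm38, the same assembly as mm10), and 35 of 35 symbols matched.

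The members and lists were chosen with earlier results of these data known. The naming rule gave values in every library for Snap25, Syt1, Camk2a, the 5 transmitter genes, the 2 smallest p in each other role and any member without overlap. In each other list it took up to 4 genes with the smallest p and the 2 with the highest TPM. Some genes this rule selects are not reported here. On simulated data with 10718 genes tested, 50 genes were changed at each fold. The fit recovered 12% of genes changed 1.5-fold, 70% at 2-fold and 90% at 3-fold, among genes with a mean over 5 CPM. Of 146 calls, 12 were false. In the real data 11 genes passed. The adjusted cut is stricter where fewer genes pass, so these rates may overstate recovery in the real data. No libraries were duplicates by a chi-square comparison of counts.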

Additional observations from a re-analysis of the deposited data

Results flagged for a closer look

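In 2 of 70 groups of 4 values (35 members in 2 genotypes) a library stood far from the others, which chance alone gives in about 1 group in 20. Homer1, a postsynaptic scaffold, had 277.2 CPM in WT replicate 2, where the next WT library had 206. Grin1, the NMDA receptor subunit, had 78.87 CPM in Ptch1cKO replicate 1, where the next mutant library had 64.42, and the gap was 0.911 of the group's range.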

How the results depend on the processing

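No member passed over all genes under any of the 14 alternatives, and the smallest adjusted p of a member was 0.128, for Syn2 by DESeq2. Positive fold changes numbered 10 to 17 of 35. Over all genes, 11 passed by edgeR, 79 by DESeq2, 199 without the count filter (20578 genes tested), 5 with the replicate block, 3 in the 6 libraries with under 10 Xist counts and 1 to 19 with a library left out (1 without WT replicate 2, 3 or 4, 2 without WT replicate 1 or Ptch1cKO replicate 4, 4 without Ptch1cKO replicate 3, 6 without Ptch1cKO replicate 1, 19 without Ptch1cKO replicate 2); the cause of these shifts was not tested. Libraries with the same number in the sample titles did not deviate together (correlations -0.18 to 0.02), so the numbers were not used as pairs. The submitters' column names number mutant replicates 3 and 4 as 4 and 5, so the title numbers need not mark pairs. The replicate block, by title numbers, turned Shank3 to -0.00979 on the log2 scale. Of 490 member values, 41 changed sign, all in 15 members with a main value within 0.136 of 0 (log2). With under 10 Xist counts, values were 0.00619 for Vamp2, -0.109 for Syt1, -0.0622 for Cplx2, 0.102 for Syn1, 0.0398 for Bsn, 0.106 for Nrgn and 0.0277 for Gabrb2. With a library left out, they ran from -0.164 to 0.0376 for Vamp2, -0.0771 to 0.17 for Syt1, -0.24 to 0.0682 for Cplx1, -0.0577 to 0.125 for Cplx2, -0.136 to 0.0482 for Syn1, -0.117 to 0.157 for Sv2b, -0.0225 to 0.12 for Rims1, -0.221 to 0.0447 for Bsn, -0.373 to 0.0499 for Slc32a1, -0.302 to 0.314 for Gad1, -0.0153 to 0.103 for Dlg4, -0.171 to 0.143 for Shank3, -0.0594 to 0.0542 for Camk2a, -0.149 to 0.0638 for Nrgn and -0.176 to 0.0609 for Gabrb2. No member fell below the count filter, so the planned test of such members was not run. In simulation 12% of genes changed 1.5-fold were recovered, among those with a mean over 5 CPM, so most were missed there. The median coefficient of variation was 18.4% over the members and 25.3% over all genes tested. Recovery of the members alone was not tested.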
